A study of Mus musculus with 39 samples.

Results

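The genes described here are those of the proteasome and its activators in the mouse testis, with Psma8, the testis form of an alpha-ring subunit, among them. They were taken by name: every symbol in the single-cell gene list that begins with Psma, Psmb, Psmc, Psmd, Psme or Psmf followed by a number. This gave 46 of 32285 genes, of which 45 encode proteasome subunits, chaperones or regulators. The remaining one, Psmc3ip, encodes a partner of meiotic recombinases (HOP2) that carries the name of the ATPase to which it was first found to bind. The rule used no measured value.

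The series follows mice whose germ cells lose Kdm6a, an X-linked gene whose product UTX removes the histone mark H3K27me3. The control carried the floxed allele without Cre (Kdm6a fl/y), and the conditional knockout (cKO) carried the same allele with Ddx4-Cre (Kdm6a fl/y; Ddx4-Cre+). Ddx4 is a germ-cell gene, and recombination in somatic cells was not tested. Whole testis was dissociated with collagenase and trypsin and profiled by droplet single-cell RNA-seq (10x Genomics, 3′ chemistry v3.1) in 1 control and 1 cKO library. The ages and the number of animals behind each library are not given in the labels. Open chromatin (ATAC-seq) and H3K27me3 (CUT&Tag) were mapped in sorted cKIT+ spermatogonia of the same genotypes, with 2 control and 3 cKO libraries each.

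The 26S proteasome degrades proteins marked with ubiquitin. Its 20S core is a barrel of alpha rings, which form the gate, around beta rings, which hold the cutting sites. A 19S particle sits on the end of the barrel: its base ATPases unfold the substrate, and its non-ATPase subunits bind and remove ubiquitin. Other activators can take its place, namely the ring of Psme1 and Psme2 (PA28 alpha and beta), the ring of Psme3 (PA28 gamma), and Psme4 (PA200), which is abundant in testis and is known for the degradation of acetylated histones in spermatids. In spermatocytes Psma8 takes the position of Psma7 in the alpha ring, and in immune cells Psmb8, Psmb9 and Psmb10 replace the cutting subunits Psmb5, Psmb6 and Psmb7.

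The control library held 229882646 UMIs and the cKO library 172368722. Barcodes with at least 3000 UMIs, 500 genes and at most 20% mitochondrial UMIs were kept as cells, 11181 in the control and 8444 in the cKO library, and 30 barcode sequences with at least 3000 UMIs occurred in both libraries. Each cell was placed in a class by marker genes, none of them a proteasome gene. The classes used below held, in control and cKO, 145 and 137 spermatogonia-like cells, 520 and 174 early spermatocyte-like, 1986 and 1578 late spermatocyte-like, 1742 and 1720 round spermatid-like, 4078 and 2923 elongating spermatid-like, 305 and 225 Sertoli-like and 98 and 98 Leydig-like cells. The genes that led each class included its own markers and no marker of another class. The cells were gated by these markers, so this does not test the classes. Examples are Dmrt1 and Sall4 in spermatogonia, Stra8 and Prdm9 in early and Piwil1 and Pou5f2 in late spermatocytes, Prm1 in elongating spermatids, Amhr2 in Sertoli-like and Insl3 in Leydig-like cells. Sertoli-like cells also held elongating-spermatid markers at 79950 and 74160 of each 1000000 UMIs, and the early spermatocyte-like classes were unlike in make-up, with early markers at 3780 and 2799 on the same scale. Spermatogonia-like cells held early spermatocyte markers at 1630 and 1301 on that scale, above their own markers at 944.5 and 988.6. Kdm6a itself had 300 UMIs over all control cells and 63 over all cKO cells, 136 and 5 of them in early spermatocyte-like cells, while Sertoli-like cells had 16 and 17. The 3′ tag may lie outside the deleted part, so these counts may not check the deletion.

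Levels are given as CPM, the UMIs of a gene per 1000000 UMIs of the class, summed over the cells of 1 class in 1 library. They come from 3′ tags and are not scaled by gene length, so levels are read first within a gene or as sums. Ranks, ratios and shares between genes hold only for UMIs as counted, since capture may differ by gene. A value is a share of the class's RNA. Fewer cells, less RNA per cell and a smaller share cannot be told apart from this unit alone, so UMIs per cell are given where that matters. Each genotype is 1 library. No test between genotypes was possible, and the 95% intervals quoted (exact, from Poisson or binomial counting) cover counting error only. Differences between libraries in genotype, animal, dissociation and depth cannot be told apart.

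Promoter sequences are shown for 4 genes on which the results below turn. Each run is the 250 bases before the RefSeq start of the gene, on the gene's strand, 5′ to 3′, from GRCm38.p6. Capitals mark 3 short motifs searched on both strands: CCAAT, the GC box GGGCGG and the ETS core CCGGAAG. A match describes the letters only. Psmb8 and Psmb9 lie 10864 bp apart on chromosome 17 and are shown because, of the members with a promoter window, they were those with H3K27me3 there. Psma8 has no such window. The Psmb8 window at chr17:34197945-34198194 (+ strand) held none of the motifs, and the Psmb9 window at chr17:34187331-34187580 (− strand) held 1 GC box and 1 CCAAT.

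Psmb8: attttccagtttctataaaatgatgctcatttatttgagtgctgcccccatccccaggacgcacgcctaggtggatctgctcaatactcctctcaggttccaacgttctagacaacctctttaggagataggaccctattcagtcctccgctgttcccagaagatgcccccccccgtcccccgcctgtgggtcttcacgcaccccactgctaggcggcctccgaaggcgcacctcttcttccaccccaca

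Psmb9: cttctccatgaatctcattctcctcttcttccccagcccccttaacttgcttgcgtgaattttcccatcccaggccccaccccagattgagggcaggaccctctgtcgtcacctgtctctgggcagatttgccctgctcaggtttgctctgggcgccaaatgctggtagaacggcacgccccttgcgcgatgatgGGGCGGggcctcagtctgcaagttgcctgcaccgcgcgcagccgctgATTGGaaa

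Psmc3ip, at chr11:101095436-101095685 (− strand), is shown because, like Psma8, it was higher in late spermatocytes than in spermatogonia. Its window held 3 ETS cores and 1 CCAAT. Psme4, at chr11:30771525-30771774 (+ strand), is shown because it differed between the libraries in each class. It held 1 GC box, read on the opposite strand, and 1 ETS core, which share 1 base.

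Psmc3ip: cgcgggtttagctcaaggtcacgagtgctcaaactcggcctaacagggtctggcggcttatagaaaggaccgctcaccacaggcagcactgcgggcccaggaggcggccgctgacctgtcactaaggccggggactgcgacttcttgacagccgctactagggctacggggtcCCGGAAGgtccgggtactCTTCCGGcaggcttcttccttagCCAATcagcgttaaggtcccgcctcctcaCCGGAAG

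Psme4: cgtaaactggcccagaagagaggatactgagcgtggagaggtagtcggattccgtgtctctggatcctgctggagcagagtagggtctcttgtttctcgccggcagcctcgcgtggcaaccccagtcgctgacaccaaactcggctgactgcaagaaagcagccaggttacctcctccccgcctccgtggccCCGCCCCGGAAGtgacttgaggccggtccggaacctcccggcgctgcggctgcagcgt

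Along the germ line, Psma7 and Psma8 ran in opposite directions from spermatogonia to late spermatocytes. Psma7 (chr2:180036367-180042464), the alpha-ring subunit of most tissues, had 378 CPM in control and 416 in cKO spermatogonia-like cells. It had 73.3 and 69.96 in early spermatocytes, 26.97 and 28.1 in late spermatocytes, 12.4 and 10.9 in round spermatids and 9.33 and 8.11 in elongating spermatids. As a share of RNA the level was thus lower at each later stage in both libraries. Per cell, Psma7 was higher in late than in early spermatocytes. It had 201 and 68 UMIs in 520 and 174 early cells, and 1182 and 855 in 1986 and 1578 late cells. Psma8, its testis paralog, had 54.7 and 58.9 CPM in spermatogonia, 144 and 186 in early spermatocytes, 389 and 350 in late spermatocytes, 34.1 and 37.8 in round spermatids and 20.5 and 16.7 in elongating spermatids. Late spermatocytes stood highest in both libraries, early spermatocytes came next, and the values of these stages did not overlap with each other or with those of the rest. On the log2 scale with a pseudocount of 1 CPM, the difference between late spermatocytes and spermatogonia was -3.76 and -3.84 for Psma7 and 2.81 and 2.55 for Psma8.

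Expressed as a share of the UMIs of both paralogs, Psma8 made up 12.6% (interval 9.98 to 15.7%) in control and 12.4% (9.57 to 15.7%) in cKO spermatogonia. The share was 66.2% and 72.7% in early spermatocytes and 93.5% (93.1 to 93.9%) and 92.6% (92.1 to 93.0%) in late spermatocytes. In round spermatids it was 73.3% and 77.6%, and in elongating spermatids 68.8% and 67.3%. In both libraries late spermatocytes ranked first, round spermatids next and spermatogonia last, while early spermatocytes and elongating spermatids changed places between the libraries. The sum of the paralogs was 433 and 475 CPM in spermatogonia, 217 and 256 in early spermatocytes, and 416 and 378 in late spermatocytes. In spermatids the sum was 46.5 and 48.7 in the round and 29.9 and 24.8 in the elongating class. Early spermatocytes therefore lay below both the stage before and the stage after, and spermatids lay below all earlier stages.

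**Figure D1:**
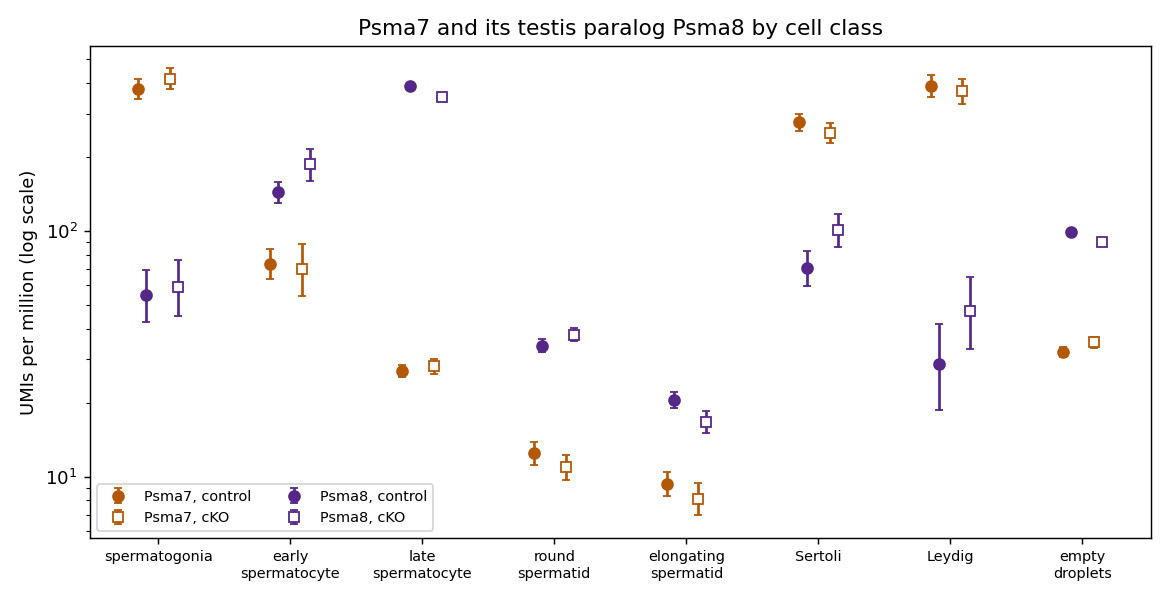
Psma7 and Psma8 levels (CPM, log axis) by cell class and in empty droplets, with filled circles for the control and open squares for the cKO library and bars for the 95% counting interval. Among the germ-cell stages Psma7 is highest in spermatogonia, at 378 and 416, and Psma8 in late spermatocytes, at 389 and 350.

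In Sertoli-like and Leydig-like cells Psma7 was the main form. Sertoli-like cells had 276 and 251 CPM of Psma7 and 70.8 and 101 of Psma8, and Leydig-like cells had 388 and 369 of Psma7 and 28.6 and 47.1 of Psma8. The few macrophage-like cells held 25 and 5 UMIs of Psma7 and 28 and 4 of Psma8. The order of Psma8 levels below late and early spermatocytes was Sertoli-like, spermatogonia, and then round spermatids and Leydig-like cells, whose ranges over the 2 libraries overlap. Sertoli-like cells also held late spermatocyte markers, at 836 and 978 CPM in sum, beside 676 and 504 in spermatogonia. The part of such germ-cell RNA in this order was not tested.

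Free RNA can add to these values. Barcodes with too few UMIs for a cell formed a peak of empty droplets, at 1100 to 1599 UMIs in the control and 600 to 1099 in the cKO library. In that peak Psma8 had 99.0 and 89.6 CPM and Psma7 32.2 and 35.2, so Psma8 was 75.5% and 71.8% of the pair. In barcodes of 10 to 100 UMIs the order was reversed, with Psma8 at 62.9 and 51.2 and Psma7 at 86.7 and 104.8. The shares in round (73.3% and 77.6%) and elongating spermatids (68.8% and 67.3%) lay near those of the peak. Psma7 in both spermatid classes lay below its level in the peak. The part of free RNA in the rank of these shares was not tested. The Psma8 share in Leydig-like cells, which should lack the gene, was 6.86% (4.53 to 9.89%) and 11.3% (8.09 to 15.3%). In spermatogonia it was 12.6% (9.98 to 15.7%) and 12.4% (9.57 to 15.7%), so the intervals of the 2 classes overlap in the cKO and not in the control library. The gap in the control library, from 9.89% to 9.98%, is narrow, and the control spermatogonia share was lower under some alternatives given at the end. The median depths were 7641 and 6460 UMIs in spermatogonia and 8210 and 6726 in Leydig-like cells. When 1 mean empty-droplet profile was subtracted per cell, Psma8 was 46.6 and 54.9 CPM in spermatogonia, 159 and 203 in early and 407 and 361 in late spermatocytes. It was 28.4 and 35.0 in round spermatids, and 4.6 and 7.3 in elongating spermatids. The subtraction thus took away most of the Psma8 value of elongating spermatids, but not that of late spermatocytes. It takes the barcodes of the peak to be empty, which was not tested.

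The genes most like Psma8 over the 14 values of 7 classes in 2 libraries, among 6903 other genes, were Sdf2l1 (Pearson r 0.988), Cd320 (0.985), Map2k5 (0.976), Pcgf6 (0.975) and Tesmin (0.975). Sdf2l1 encodes a protein of the endoplasmic reticulum, and its levels in control cells were 22.7 CPM in spermatogonia, 87.5 in early and 192 in late spermatocytes, and 17.2 in round spermatids. Tesmin was among the markers used to find late spermatocytes. The points share libraries, depth and free RNA, and the r values only describe the likeness.

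The rest of the alpha ring did not keep a common level. In spermatogonia the highest and lowest of the 8 alpha genes differed 7.97-fold in control and 8.64-fold in cKO, and in elongating spermatids 227-fold and 257-fold. The gene that stood out was Psma6 (chr12:55384222-55418459), which had 364 and 444 CPM in spermatogonia, 428 and 333 in early and 223 and 228 in late spermatocytes, 910 and 865 in round spermatids, and 1451 and 1408 in elongating spermatids. Each library showed its lowest germ-cell value in late spermatocytes and its highest in elongating spermatids. Psma6 made up 69.8% and 65.6% of the alpha-ring UMIs in round spermatids and 92.3% and 92.6% in elongating spermatids. In UMIs per cell, Psma6 had 4.92 and 4.39 in late spermatocytes, 15.1 and 14.3 in round spermatids, and 11.6 and 10.3 in elongating spermatids, so the higher value of spermatids was not only a matter of shares. RefSeq lists 2 start sites with separate promoter windows for Psma6, and 3′ tags do not tell which one was used.

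Psma1 was the lowest alpha gene on average over the germ-cell classes, with 110 and 108 CPM in spermatogonia, 106 and 124 in early and 53.5 and 62.7 in late spermatocytes. It had 16.9 and 21.5 in round and 6.38 and 5.48 in elongating spermatids. Psma2, Psma3, Psma4 and Psma5 also had their lowest germ-cell level in elongating spermatids. The sum of the alpha ring was 2083 and 2341 in spermatogonia, 1398 and 1437 in late spermatocytes, 1303 and 1318 in round spermatids, and 1571 and 1522 in elongating spermatids. The composition behind this near-level sum differed, since its median member had 157 and 168 CPM in late spermatocytes and 16.2 and 13.4 in elongating spermatids.

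The constitutive beta ring, whose members include the cutting subunits, was lower in late spermatocytes than in spermatogonia and lowest in elongating spermatids. Its sum was 2558 and 2839 CPM in spermatogonia, 1544 and 1700 in late spermatocytes, 898 and 1059 in round spermatids, and 215 and 212 in elongating spermatids. In UMIs per cell these sums were 22.6 and 20.8, 34.1 and 32.8, 14.9 and 17.6, and 1.72 and 1.55. Psmb6 (caspase-like site), the beta gene with the highest mean CPM over the germ-cell stages, had 392 and 465 CPM in spermatogonia, 457 and 516 in late spermatocytes, 393 and 458 in round spermatids, and 71.8 and 69.6 in elongating spermatids. It was the beta gene with the smallest difference between late spermatocytes and round spermatids, where it made up 43.8% and 43.3% of the ring. Psmb5, the chymotrypsin-like subunit, had 314 and 387 in spermatogonia, 259 and 284 in late spermatocytes, 134 and 161 in round spermatids, and 28.5 and 27.9 in elongating spermatids. Psmb7, the trypsin-like subunit, had 282 and 266, 194 and 206, 124 and 142, and 30.5 and 29.5 in the same stages. The lowest by that mean was Psmb3, a structural subunit, with 345 and 412 in spermatogonia and 12.3 and 12.3 in elongating spermatids. Psmb2 had the widest range, from 361 and 353 in spermatogonia to 10.6 and 10.5 in elongating spermatids. Reads that could be split between a gene and a processed pseudogene copy would make these levels uncertain to that extent, which was not tested.

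The inducible subunits were nearly absent from germ cells. Psmb8, the inducible counterpart of Psmb5, had 0 UMIs in both libraries in spermatogonia, early spermatocytes and round spermatids, 1 and 1 in late spermatocytes, and 2 and 0 in elongating spermatids. In spermatogonia a count of 0 allows up to 2.34 CPM in the control and 3.00 in the cKO library, while Psmb5 had 402 and 388 UMIs in the same cells. Leydig-like cells had 17 and 13 UMIs of Psmb8, or 18.7 and 16.6 CPM. Psmb9, the counterpart of Psmb6, had 6 and 6 UMIs in spermatogonia (4.69 and 5.99 CPM) and 14 and 6 in Leydig-like cells (15.4 and 7.64 CPM). Psmb10, the counterpart of Psmb7, was the exception, with 53.1 and 89.9 CPM in spermatogonia, 6.20 and 8.23 in early and 5.50 and 5.19 in late spermatocytes, and 1.69 and 1.297 in round spermatids. In the empty-droplet peak it had 2.39 and 2.85. The thymic subunit Psmb11 had 3 and 2 UMIs over all cells.

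Psme1 and Psme2, whose genes lie 5912 bp apart on chromosome 14, shared the course of Psmb10. Psme1 had 162 and 196 CPM in spermatogonia, 15.3 and 26.8 in early spermatocytes, 0.821 and 1.09 in late spermatocytes, and 0.965 and 0.911 in round spermatids. Psme2 had 145 and 164, 15.3 and 17.5, 1.14 and 0.756, and 0.483 and 0.561 in these stages. Both were present in Leydig-like cells, Psme1 at 283 and 289 and Psme2 at 161 and 139. In Sertoli-like cells Psme1 stood at 13.7 and 16.8 and Psme2 at 44.8 and 41.4. The late-spermatocyte values of Psme1 lie below those of the empty-droplet peak (2.91 and 3.82), and after subtraction of that peak they were 0.685 and 0.961 CPM. The log2 difference from spermatogonia to late spermatocytes was -6.48 and -6.56 for Psme1 and -6.09 and -6.55 for Psme2. The near-identical copy Psme2b had 10 and 6 UMIs in all cells, and reads shared with Psme2 could move between them.

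Psme3 and Psme4 were both present at every germ-cell stage. Psme3 had 102 and 102 CPM in spermatogonia, 71.9 and 52.5 in early and 27.5 and 24.4 in late spermatocytes, 57.5 and 39.5 in round spermatids, and 99.6 and 88.2 in elongating spermatids. Its minimum was in late spermatocytes in both libraries. Psme4 was the most even of the activators, with a range of 1.5-fold between its highest and lowest germ-cell stage, averaged over the libraries. In control cells it had 195 CPM in spermatogonia, 260 in early and 288 in late spermatocytes, 276 in round and 228 in elongating spermatids. The cKO values, 115, 164, 177, 182 and 154 in the same order, were lower at each stage and are taken up below.

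Psmf1 (PI31, chr2:151716062-151744199), a proteasome-binding protein first described as an inhibitor, ran with Psma6. It had 116 and 146 CPM in spermatogonia, 145 and 132 in early and 91.5 and 94.0 in late spermatocytes, 276 and 258 in round spermatids, and 694 and 766 in elongating spermatids. In UMIs per cell it had 2.02 and 1.81 in late spermatocytes, and 5.55 and 5.59 in elongating spermatids. Psma6, Psmf1 and Psme3 were the only members at least 2-fold higher in elongating than in late spermatocytes in both libraries, with log2 differences of 2.70 and 2.63, 2.91 and 3.01, and 1.82 and 1.81. Of all genes compared at this step, 20.6% were 2-fold higher in both.

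Within the 19S base, Psmc3 and Psmc2 kept a higher share of RNA in elongating spermatids than the other ATPases. Psmc3 had 593 and 479 CPM in spermatogonia, 549 and 556 in early and 1170 and 1120 in late spermatocytes, 1124 and 1092 in round spermatids, and 392 and 317 in elongating spermatids. Psmc2 had 247 and 228, 258 and 257, 401 and 419, 554 and 581, and 392 and 361 in these stages. Psmc4, the ATPase gene with the lowest mean over the stages, had 116 and 153 in spermatogonia, 93.3 and 105 in late spermatocytes, 30.9 and 38.8 in round spermatids, and 7.42 and 6.66 in elongating spermatids. The highest and lowest base genes differed 5.09-fold and 3.14-fold in spermatogonia and 52.8-fold and 54.2-fold in elongating spermatids.

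Among the non-ATPase subunits, Psmd8 had the highest mean CPM over the germ-cell stages and the smallest range between them, although Psmd2 was higher in spermatogonia, at 419 and 408, and in early spermatocytes. Psmd8 had 261 and 254 CPM in spermatogonia, 249 and 297 in early and 452 and 489 in late spermatocytes, 349 and 427 in round spermatids, and 250 and 304 in elongating spermatids, where it made up 45.1% and 52.6% of the group. Psmd1, a large scaffold subunit of the base, had 216 and 202 in spermatogonia, 210 and 203 in early and 131 and 132 in late spermatocytes, 21.4 and 24.8 in round and 12.0 and 8.62 in elongating spermatids. Psmd3 had the lowest mean over the stages, from 65.6 and 57.9 in spermatogonia to 6.32 and 6.42 in elongating spermatids. The deubiquitinase subunit Psmd14 had 102 and 144 in spermatogonia, 81.7 and 81.0 in late spermatocytes and 9.79 and 10.9 in round spermatids. Psmd14 was thus among the subunits that differed most between late spermatocytes and round spermatids.

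The assembly chaperones named Psmd had unlike courses. Psmd5 had 83.6 and 78.9 CPM in spermatogonia, 26.99 and 22.6 in early and 14.6 and 14.9 in late spermatocytes, and 3.45 and 4.17 in round spermatids. Psmd9 had 67.2 and 76.9 in spermatogonia, 82.3 and 87.7 in late spermatocytes and 15.9 and 15.5 in elongating spermatids. Psmd10 (gankyrin), the only X-linked member, had 46.1 and 46.9 in spermatogonia, 25.5 and 31.9 in early and 4.72 and 5.06 in late spermatocytes, 63.8 and 76.3 in round spermatids and 9.26 and 8.86 in elongating spermatids. Among all X-linked genes measured at the same step, 113 of 119 were at least 2-fold lower in late spermatocytes than in spermatogonia in both libraries, with a median log2 difference of -4.78 and -4.80, beside 28.9% of all genes compared. From late spermatocytes to round spermatids 66 of 67 X-linked genes were at least 2-fold higher, beside 24.8% of all genes. An X-linked gene near 0 in late spermatocytes passed the limit on low levels (a mean of 20 CPM over the classes compared) only through the other class and had to differ. Psmd10, at -3.04 and -2.98 and then 3.50 and 3.67, differed in the same direction as nearly all of these.

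Psmc3ip, which is no proteasome subunit, had 129 and 108 CPM in spermatogonia, 215 and 303 in early and 495 and 515 in late spermatocytes, 344 and 378 in round spermatids, and 103 and 97.9 in elongating spermatids. With Psma8 it was the only member at least 2-fold higher in late spermatocytes than in spermatogonia in both libraries, by 1.93 and 2.25 on the log2 scale, beside 22.9% of all genes compared. Unlike Psma8 it stayed high in round spermatids.

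**Figure D2:**
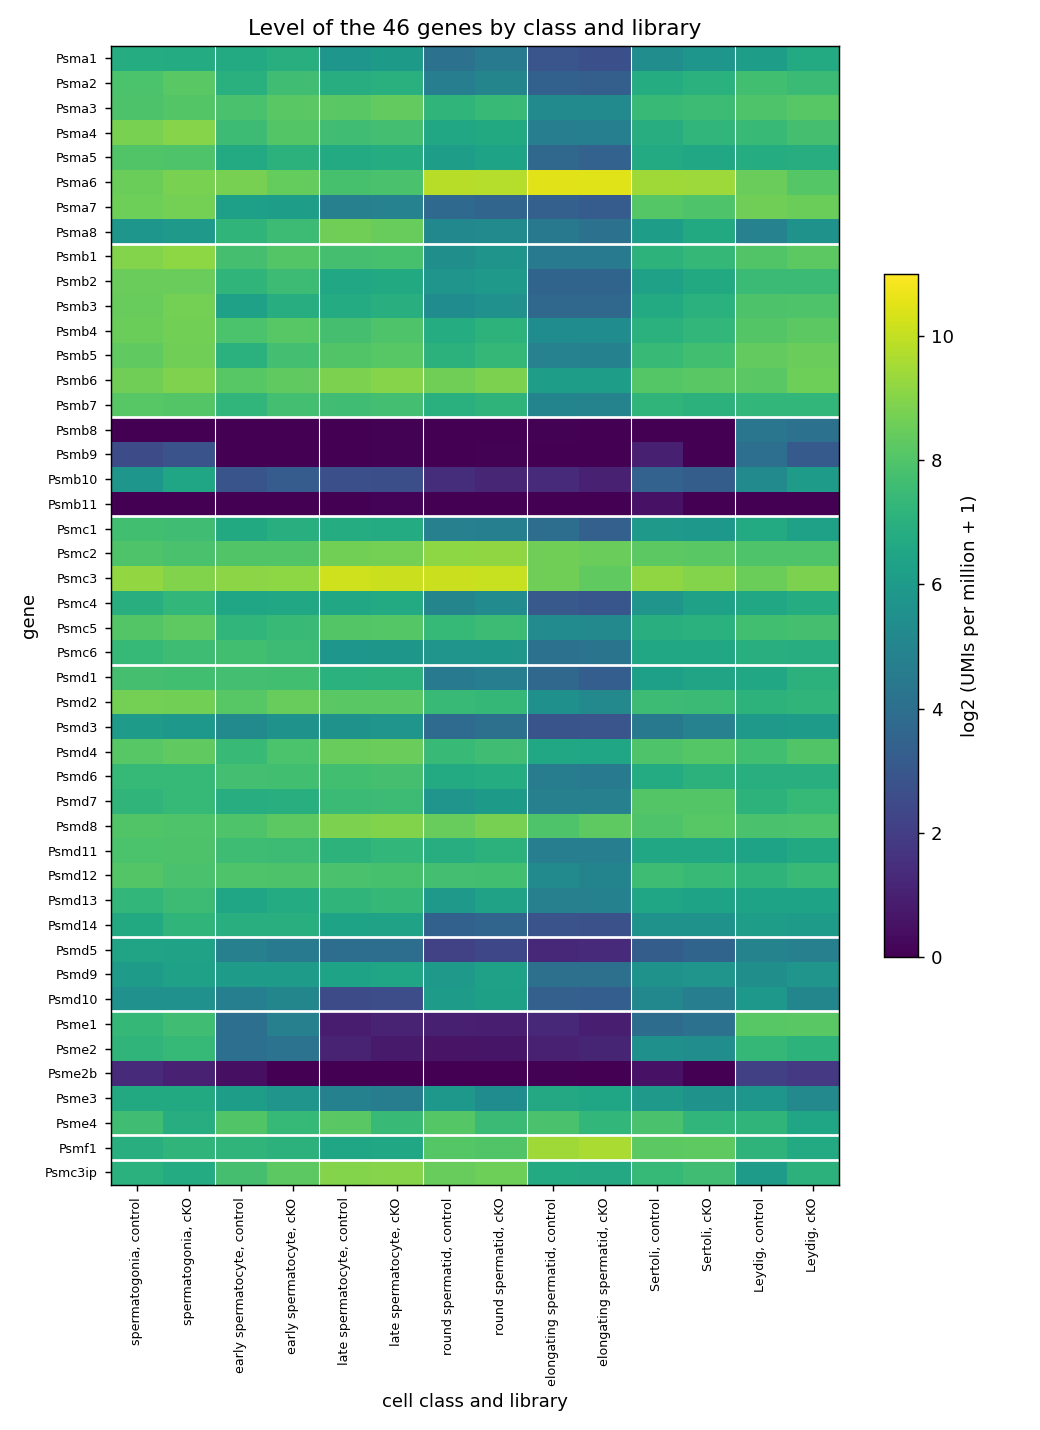
Levels of the members (log2 of CPM plus 1) in each cell class of the control and the cKO library, ordered by role. Brighter (yellow) is higher. Most subunits are darkest in elongating spermatids, where Psma6, Psmf1, Psmc2, Psmc3 and Psmd8 stay bright.

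A gene entered a comparison of stages when its mean level over the classes compared was at least 20 CPM, and was called when it differed at least 2-fold in CPM plus 1, in the same direction in both libraries. From spermatogonia to late spermatocytes 42 members were compared, of which 2 were higher and 14 lower. Over all 6956 genes compared, 22.9% were higher and 28.9% lower. The members' median log2 difference was -0.53 in control and -0.62 in cKO, beside -0.22 and -0.15 for all genes. Members under 20 in 1 of the classes passed through the other and had to differ, so these counts only describe. The 14 lower members were Psma2, Psma4, Psma5, Psma7, Psmb1, Psmb2, Psmb3, Psmb10, Psmc6, Psmd5, Psmd10, Psme1, Psme2 and Psme3. These calls are on shares of RNA and do not hold per cell for every one of these members. Psmb1 had 635 and 553 UMIs in 145 and 137 spermatogonia. It had 9424 and 6774 in 1986 and 1578 late spermatocytes, which is more per cell in both libraries.

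From late spermatocytes to elongating spermatids 36 members were compared, of which 30 were lower and 3 higher, beside 60.9% of all genes lower and 20.6% higher. The members' median was -2.69 and -2.87, beside -1.68 and -1.82 for all genes. The remaining 3 members, Psmc2, Psmd8 and Psme4, differed by less than 2-fold. Of the steps between, 7 of 42 members were lower and 1 higher from spermatogonia to early spermatocytes (all genes 8.68% and 5.71%), and 3 of 37 were lower and 1 higher from early to late spermatocytes (27% and 15.1%). From late spermatocytes to round spermatids 13 of 37 were lower and 3 higher (29.7% and 24.8%), and from round to elongating spermatids 21 of 31 were lower and 1 higher (50.7% and 9.8%). The early-to-late step, where the early classes of the libraries were unlike in make-up, held fewer differing members than the share of all genes. At each of these steps too, members under 20 CPM in 1 class passed the limit only through the other and had to differ. These counts and medians thus only describe.

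**Figure D3:**
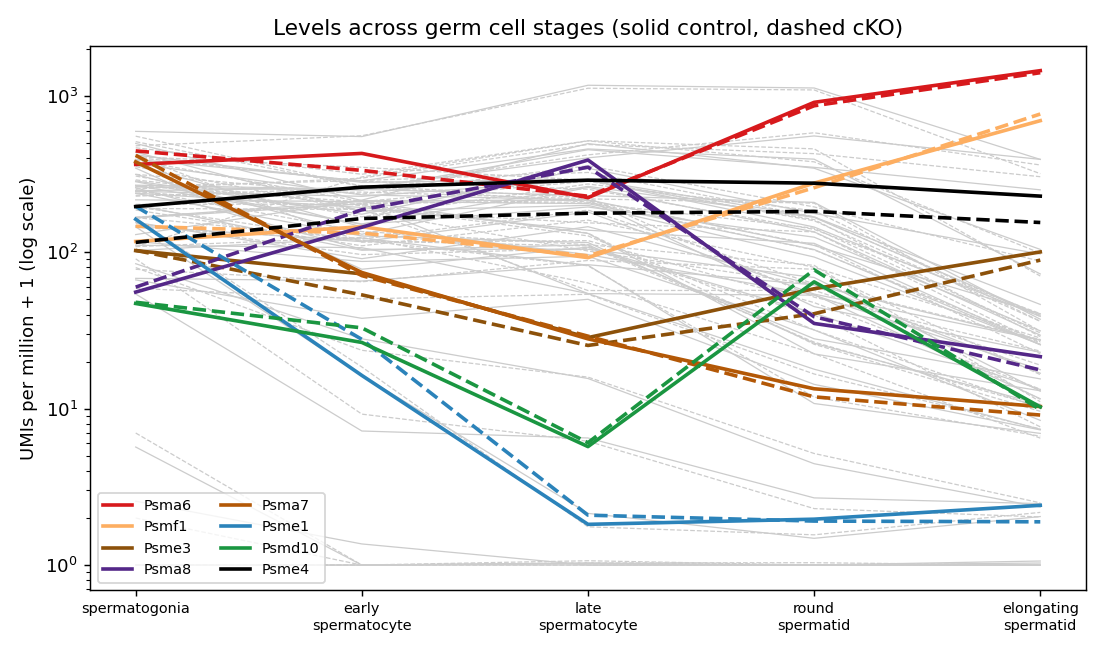
Levels by germ-cell stage (CPM plus 1, log axis) in the control (solid) and the cKO library (dashed), with 8 members coloured and the others in grey. The lines of Psma6 and Psmf1 run upwards to elongating spermatids, at 1451 and 694 in the control library, while most others run downwards.

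Summed by particle, the 20S core (15 alpha and constitutive beta genes) had 4640 and 5180 CPM in spermatogonia, 2622 and 3175 in early and 2942 and 3137 in late spermatocytes, 2201 and 2376 in round spermatids, and 1786 and 1733 in elongating spermatids. The 19S particle (17 genes) had 3909 and 3923, 3283 and 3492, 4337 and 4411, 3230 and 3398, and 1416 and 1325. This sum lacks the subunits Adrm1 and Sem1, which the naming rule left out. The 20S sum in elongating spermatids came mostly from Psma6, at 1451 and 1408 CPM. The median 20S gene had 199 and 209 CPM in late spermatocytes and 21.96 and 22.36 in elongating spermatids. The median 19S gene had 180 and 185 CPM, and 26.4 and 26.7, in these stages. All 45 proteasome genes of the naming rule had 84.1 and 74.0 UMIs per cell in spermatogonia, 172 and 153 in late spermatocytes and 34.0 and 29.9 in elongating spermatids. Late spermatocytes, the class with the most UMIs per cell (median 20790 and 16910), thus held the most proteasome RNA per cell, while spermatogonia held the highest share.

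Other genes of the pathway that the naming rule left out were compared in the same way, and their counts have the same limit. The list of 28 held the subunits Adrm1 and Sem1, assembly chaperones, deubiquitinases, shuttle receptors, ubiquitin genes and regulators. From late spermatocytes to elongating spermatids 21 of these were compared, of which 15 were lower and 3 higher, beside 60.9% and 20.6% of all genes. The lower ones included the assembly chaperones Pomp, Psmg1, Psmg2 and Psmg4, and the proteasome-bound deubiquitinases Usp14 and Uchl5. Ddi1, a shuttle receptor, was among the higher ones, with 16.7 and 15.0 CPM in late spermatocytes and 149 and 130 in elongating spermatids. From spermatogonia to late spermatocytes 24 were compared, with 2 higher and 10 lower, beside 22.9% and 28.9% of all genes.

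Between the libraries, most members differed little. A gene was compared when its mean level over both libraries was at least 20 CPM in the class, and was called when the libraries differed at least 1.5-fold in CPM plus 1. Psme3 in Leydig-like cells, at 53.9 and 35.7 CPM, lay just inside that limit and Psma1, at 69.3 and 106, just beyond it. In late spermatocytes 1 of 37 members was past that fold, beside 1.82% of all genes, and in round spermatids 1 of 34, beside 3.88%. In elongating spermatids 0 of 23 were, beside 3.83%. In the smaller classes the counts were 2 of 42 in spermatogonia (13.4% of all genes), 4 of 40 in early spermatocytes (15.6%), 1 of 39 in Sertoli-like cells (7.17%) and 6 of 42 in Leydig-like cells (24.5%). Over all cells 1 of 38 members was past the fold, beside 2.14%. The members' share was at or below the background in each class other than late spermatocytes, where 1 member is 2.70%, and likewise over all cells, where it is 2.63%.

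In most classes small differences leaned towards the cKO library. In late spermatocytes 29 of 37 members were higher in cKO (78.4%, beside 48.9% of all genes), and in round spermatids 26 of 34 (76.5%, beside 56.0%). The median log2 ratio of the members, cKO over control, was 0.07 in late and 0.20 in round classes, beside -0.01 and 0.04 for all genes. In elongating spermatids it was -0.04, beside -0.07, and 9 of 23 members were higher in cKO (39.1%, beside 36.8%). In the other 4 classes the share of members higher in cKO was 59.0 to 65.0%, beside 39.2 to 50.8% of all genes. The beta ring shows it as a sum: 1544 in control and 1700 in cKO late spermatocytes, and 898 and 1059 in round spermatids. A like difference, 834 and 1035, was present in the empty-droplet peak, and its part in the result was not tested. Other groups did not all share it. In late and round classes the base ATPases had 2091 and 2081, and 1955 and 1976. The alpha ring had 1398 and 1437, and 1303 and 1318, and the non-ATPase subunits 2246 and 2330, and 1275 and 1422. The activators, Psme4 among them, were lower in cKO, at 318 and 203, and 335 and 223. Members share a library, so their counts only describe.

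Psme4 (chr11:30771775-30881150), which encodes PA200, was the member that differed in each class. In control and cKO it had 195 and 115 CPM in spermatogonia, 260 and 164 in early and 288 and 177 in late spermatocytes. It had 276 and 182 in round and 228 and 154 in elongating spermatids, 230 and 151 in Sertoli-like and 146 and 89.2 in Leydig-like cells. The cKO value was the lower one in all 7 classes. No cKO value of a germ-cell stage reached the lowest control value among these stages, 195 in spermatogonia. The log2 ratio was -0.77 (interval -1.10 to -0.44) in spermatogonia, -0.67 (-0.93 to -0.42) in early, -0.70 (-0.75 to -0.66) in late spermatocytes and -0.60 (-0.65 to -0.55) in round spermatids. It was -0.56 (-0.62 to -0.50) in elongating spermatids, -0.60 (-0.83 to -0.38) in Sertoli-like and -0.71 (-1.15 to -0.29) in Leydig-like cells. Elongating spermatids thus lay just inside the 1.5-fold limit and the other classes beyond it. With each cell thinned to 3000 UMIs, round spermatids (-0.58) and Sertoli-like cells (-0.54) also fell inside the limit. With classes taken from clusters, early spermatocytes did (-0.51).

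Over all cells Psme4 had 35268 UMIs in the control and 16979 in the cKO library, a log2 ratio of -0.63 (-0.66 to -0.60). Of 5896 genes compared over all cells, 89 had a lower ratio. By class, 42 of 5830 did in late spermatocytes, 180 of 5521 in round and 157 of 3684 in elongating spermatids, and 271 of 6791 in Sertoli-like cells. In the other classes more genes lay lower, 373 of 7245 in spermatogonia, 581 of 7102 in early spermatocytes and 531 of 6416 in Leydig-like cells. Of 2487 genes compared in all 7 classes, 68 were at least 1.2-fold lower in the cKO library in each of them and 5 at least 1.2-fold higher. Psme4 was the only one of 23 members so compared that was among the 68. The empty-droplet peak held 296 and 209 CPM of Psme4, so the 2 libraries also differed in that peak. In barcodes of 10 to 100 UMIs Psme4 stood at 102 (88.4 to 117) and 93.4 (80.5 to 108) CPM, and these intervals overlap. Those barcodes held macrophage markers at 1099 and 1346 CPM in sum, beside 22.3 and 18.7 in barcodes of at least 3000 UMIs. In barcodes of 101 to 500 UMIs Psme4 stood at 211 (170 to 258) and 182 (161 to 204) CPM, with intervals that overlap as well. In barcodes of over 500 and up to 1000 UMIs Psme4 stood at 283 and 212 CPM. In those of over 1000 and under 3000 it stood at 295 and 177 CPM. After subtraction of the empty-droplet peak Psme4 remained at 214 and 144 in Sertoli-like, 121 and 75.2 in Leydig-like and 288 and 175 in late spermatocyte-like cells. In the 74 and 101 Sertoli-like cells with at most 2% of UMIs from elongating-spermatid markers the log2 ratio was -0.33. Whether the difference belongs to genotype, to animals or to library preparation was not tested, and with 1 library each these cannot be told apart.

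The other members past 1.5-fold were so in 1 or 2 classes each. Psmb10 was higher in cKO spermatogonia, with 68 UMIs in control and 90 in cKO and a log2 ratio of 0.76 (0.29 to 1.24). It was also higher in cKO Leydig-like cells, at 36.3 and 65.0 CPM, a ratio of 0.84 (0.18 to 1.52). In early spermatocytes Psma2 (126 and 198), Psmb5 (130 and 210) and Psme1 (15.3 and 26.8) were higher in cKO, by 0.65, 0.70 and 0.80 on the log2 scale. Psme1, with 42 and 26 UMIs and an interval of 0.04 to 1.54, reached the mean of 20 CPM only through the cKO library. The class there held fewer early and more late markers in the cKO library, and 1 empty-droplet profile per cell would make up 25.6% and 14.9% of its UMIs. The part of either was not tested. With classes taken from clusters, 0 members were past 1.5-fold in early spermatocytes. In Leydig-like cells Psmc3ip had 63.8 and 135 (ratio 1.08, 0.61 to 1.57), Psma1 69.3 and 106 (0.61), and Psmd10 57.2 and 31.8 (-0.84, -1.59 to -0.13). Psma8 there had 26 and 37 UMIs, with an interval of -0.04 to 1.5 that includes 0. Leydig-like cells held early spermatocyte markers at 124 and 194 CPM and late ones at 345 and 634. Their spermatogonial markers stood at 355 and 201, round spermatid markers at 473 and 474, and elongating spermatid markers at 24750 and 19100. The part of this germ-cell RNA in the ratios was not tested. In late spermatocytes Psma8 itself differed less than 1.5-fold, at 389 and 350.

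**Figure D4:**
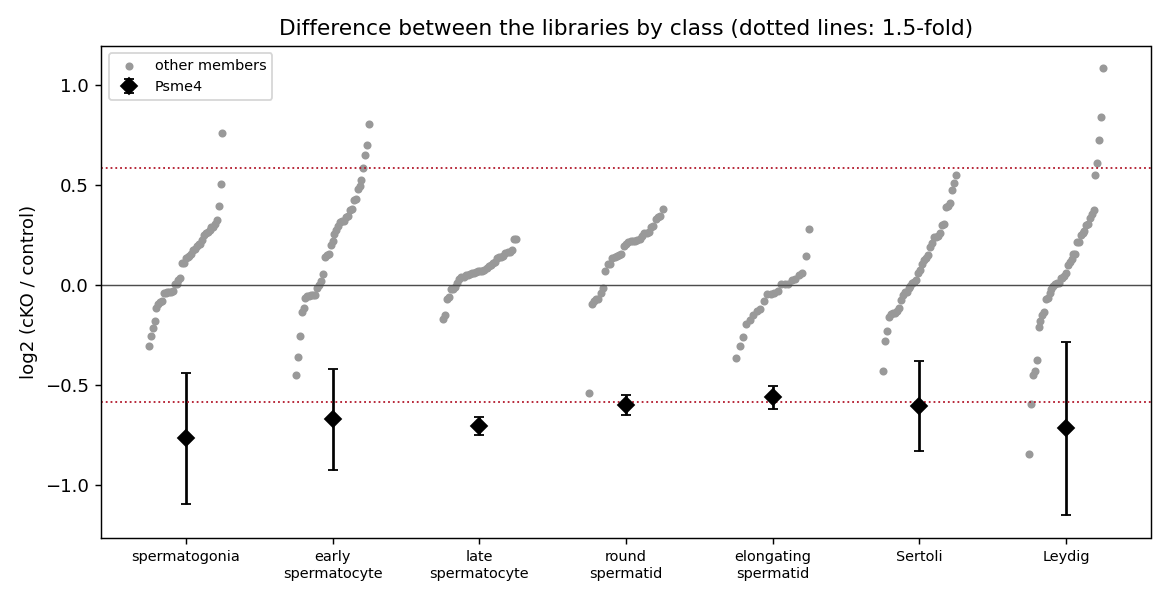
Ratio of the cKO to the control library (log2) by cell class, with each grey point 1 compared member, Psme4 in black with its 95% counting interval, and dotted lines at 1.5-fold. Psme4 lies below 0 in all 7 classes, between -0.77 and -0.56, while most members lie near 0.

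Open chromatin in cKIT+ spermatogonia gave a readout that does not depend on the RNA. The window from 250 bases before to 50 after the RefSeq start was lacking for Psma8, Psmb1, Psmb2, Psmb7, Psmc3, Psmd3 and Psmd7. Their promoters were thus assessed for neither ATAC-seq nor H3K27me3 regions. The window was available for 39 of the 46 members. A called ATAC-seq region overlapped it in all 5 libraries for 28 of 39 (71.8%), beside 23.7% of 27025 genes, and in any library for 34, beside 45.7%. The set of all genes includes those silent in testis. The libraries differed in the number of regions, from 14635 to 40497, so absence in 1 library can reflect how much was called. The 5 members with a window but no region in any library were Psma7, Psmb10, Psmb11, Psmc5 and Psme2b. Psma7 and Psmc5 were well expressed in spermatogonia-like cells, at 378 and 266 CPM in the control, so a region in this window did not follow the RNA level there.

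At the promoter of Psme4 the authors' fold enrichment was 4.02 and 5.96 in the control libraries and 3.32, 5.09 and 5.67 in cKO. The ranges overlap. Psmc3ip had 5.30 and 5.45 in control and 3.64, 4.43 and 6.92 in cKO, which overlap as well. Psmb9 had 7.03 and 5.89 in control and 3.36, 4.69 and 6.15 in cKO. Psmb8 had a region only in control 2 (3.32) and cKO 3 (4.56), the libraries with the most regions of their group.

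H3K27me3 regions reached the window of Psmb8 in all 5 libraries, the only member of 39 for which they did, beside 3.79% of all genes. Psmb9 had a region in both control libraries and in cKO 3. No other member with a window had one in any library, which makes 2 of 39, beside 15.8% of all genes. In the IgG control 0 of 39 had a region, beside 0.281%. Psmb8 thus had the mark with and without Cre, and its RNA was at 0 UMIs in spermatogonia-like cells of both single-cell libraries. Psmb9, with a few UMIs, had both an ATAC-seq region in all 5 libraries and H3K27me3 in 3. The H3K27me3 libraries also differed in how much was called. A region reached the window of 9.82% and 12.6% of all genes in control 1 and 2. In cKO 1, 2 and 3 it was 5.37%, 7.44% and 11.4%. The absence at Psmb9 in cKO 1 and 2 can reflect this, which was not tested. The sorted and the marker-gated cells are not the same population.

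In the 250 bases before the start, the ETS core CCGGAAG occurred in 12 of the 39 members with a window (30.8%), beside 7.83% of all genes with one. Among genes with an ATAC-seq region in all 5 libraries it occurred in 11 of 28 members (39.3%), beside 19.5% of such genes. The GC box GGGCGG occurred in 21 members (53.8%), beside 35.4%, and among the open promoters in 60.7%, beside 70.2%. CCAAT occurred in 15 members (38.5%), beside 37.5%, and among the open promoters in 39.3%, beside 45.2%. The palindrome TGACGTCA occurred in 0 members, beside 1.77% of genes, and TATAAA in 4 (10.3%), beside 14.3%. All were searched on both strands, and GC content was 57.4% in the median member window and 52.4% over all windows.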

How the data were processed

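The members, roles, pathway list and gating markers were chosen with earlier results of these data known. The single-cell files hold UMI counts per gene and barcode as deposited, with no cell selection, and the submitters' processing notes name Cell Ranger, Seurat 4.1.0 and mm10. From these counts, cells were kept by the limits in the report, and each was gated to the class with the highest marker score, with at least 3 of its markers detected and a margin of at least 0.25 over the next class. This scoring rule was set after the data were seen, and 2276 control and 1562 cKO cells stayed ungated. Scrublet marked 621 and 479 cells as doublets, which were kept in the reported values. UMI counts were summed by class and library and scaled to CPM. Intervals are 95% exact Poisson or Clopper-Pearson intervals. A count of 0 is bounded by 3 counts.

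The deposited ATAC-seq lists of the authors give a fold enrichment (a ratio) and the −log10 of q per region. The submitters' processing notes name cutadapt, Bowtie2 and MACS2. The authors' CUT&Tag lists give a signal per region, and the notes name SEACR; by file names, 4 of 5 H3K27me3 libraries had been downsampled. A list counted at a promoter on an overlap of 1 bp. Regions were called per library. Promoter windows (mm10) and names came from RefSeq GRCm38.p6, where 39 of 46 members matched a window.

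Named genes were the paralogs, inducible subunits, activators, Psmf1 and Psmc3ip, the highest, lowest and most variable gene of each role, and members past 1.5-fold between libraries. The genes most like Psma8 were ranked by Pearson r among those with a mean of at least 20 CPM. Alternatives covered the UMI minimum, clusters in place of gating, scaling, free RNA, doublets, depth and thresholds. The steps were tested on simulated data. Some genes of the pathway list are not reported here by name. Bulk RNA was not analysed here, because its files do not pair transcripts with genes. Tools were Python 3.11.15, numpy 2.4.6, scipy 1.17.1, pandas 2.3.3, scanpy 1.11.5, leidenalg 0.10.2 and matplotlib 3.10.9.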

Additional observations from a re-analysis of the deposited data

Results flagged for a closer look

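Psma6, Psmc3 and Psmd2 were picked out because the cKO library lay above the control library in 1 class and below it in another, each by at least 1.2-fold with a counting interval that leaves out 0. The log2 ratio of Psma6 was 0.29 in spermatogonia-like, -0.36 in early spermatocyte-like and -0.38 in Leydig-like cells. That of Psmc3 was 0.27 in Leydig-like, -0.31 in spermatogonia-like and -0.30 in elongating spermatid-like cells. That of Psmd2, a scaffold subunit of the 19S base, was 0.32 in early spermatocyte-like and -0.37 in elongating spermatid-like cells. The differences between classes were not tested.

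Macrophage-like cells entered no comparison, with 25 cells in the control and 11 in the cKO library. They held Psmb8 at 49.9 and 110 CPM, from 10 and 7 UMIs, and Psmb9 at 24.9 in the control library, from 5 UMIs. These levels lie above the limit that a count of 0 allows, in cells outside the main measurement. Psmb9 in the cKO library, with 2 UMIs and 31.4 CPM, lies below that limit, which is 47.1 CPM there.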

How the results depend on the processing

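The counts of members differing 2-fold from spermatogonia to late spermatocytes and from these to elongating spermatids stayed within 1.5 times of those reported under each alternative run for them. Thinning and the other fold and level limits were not run for these stage counts, so they cannot be ranked against the counts between libraries. The counts past 1.5-fold between libraries moved by more than 1.5 times in some runs, but most are so small that 1 member can do this. At 2-fold they were 0 in spermatogonia, early, late and round classes, in Sertoli-like cells and over all cells, and 1 in Leydig-like cells. With each cell thinned to 3000 UMIs they were 6 in spermatogonia, 0 in round spermatids and 3 in Sertoli-like cells, and the Psme4 log2 ratio over all cells was -0.59. With a minimum of 2000 UMIs the counts were 2 in early spermatocytes and 1 in elongating spermatids, also 1 there when only 1 UMI per library was asked for. Without doublets the count in Sertoli-like cells was 2. With classes from clusters it was 0 in early spermatocytes, the Psma8 ratio there was -0.0398, and the Psmc3ip ratio in Sertoli-like cells -0.0735.

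The Psma8 share in control spermatogonia was 8.81% without doublets, 8.72% after thinning and 9.58% after subtraction of the empty-droplet peak. In early spermatocytes it was 75.5% at 5000 UMIs, 60.1% after thinning and 56.1% from clusters in control, and 63.2% from clusters in cKO. In late spermatocytes it was 94.5% and 93.8% with 5% of free RNA subtracted, and 93.9% in control with the peak subtracted. Subtracting that peak turned the elongating-spermatid ratios of Psma8 to 0.67 and of Psmc3ip to 0.0452. The ATAC-seq count in all libraries was 18 at a −log10 q of at least 5. Except for the stricter thresholds, which leave fewer calls by construction, the cause was not tested. The peak subtraction and the stricter choice of Sertoli-like cells were added after seeing the data.

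Classes under 100 cells, 1 library per genotype and free RNA of up to 25.6% of a class's UMIs limit these values. No paired analysis was possible because the single-cell comparison has 1 library per genotype and the chromatin counts come from no test between groups. The alternatives planned for bulk RNA were not run.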
